A study of Homo sapiens with 21 samples.

Results

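The data described here are the untreated control cultures of a coumarin dose series, 3 of 21 RNA sequencing libraries, taken as the libraries whose labels give a coumarin dose of 0 µM. The cells are labelled HepG2, a line derived from a human liver tumour. In these cultures the serum-containing medium was replaced, after a rinse with PBS, by fresh serum-free DMEM with no coumarin, and cells were collected 6 h later with trypsin-EDTA. RNA was extracted with Trizol, enriched on poly(dT) beads and converted to cDNA with the SmartScribe enzyme. The 6 h without serum and the trypsin harvest are therefore part of the baseline that follows. The design text calls the 3 samples biological replicates. No dose is compared here, so no test between groups was made, and the spread given is that of these 3 libraries.

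A transcriptome is dominated by a small number of genes for translation, cytoskeleton and energy metabolism, and it takes its identity from a larger number of moderately expressed lineage genes. Hepatocytes are recognised by secreted plasma proteins such as albumin, by a network of transcription factors around HNF4A, and by enzymes that oxidise and conjugate foreign compounds. In human liver the cytochrome P450 enzyme CYP2A6 hydroxylates coumarin, and the reductase NQO1 is a target of the oxidative stress regulator NRF2.

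The libraries held 36488412, 27984517 and 33933229 gene counts. Levels of different genes are compared here in FPKM, the deposited values scaled by gene length and library size, and CPM are counts scaled to the library total. A gene was counted as expressed when its FPKM was at least 1 in all 3 libraries. By that rule 11001 of 58735 genes were expressed, among them 9712 of 19951 protein-coding genes (48.7%). No read was counted in any library for 31942 genes, 4819 of them protein-coding (24.2%). A count of 0 allows up to 3 counts, which corresponds to 0.0822, 0.107 and 0.0884 CPM in the 3 libraries and covers counting error only. The median protein-coding gene stood at 0.895 FPKM and the median expressed one at 8.45 FPKM, which are the levels to read the gene lists below against.

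The label HepG2 was checked first, and the hepatocyte genes went against it. Of 24 genes for secreted proteins and functions of hepatocytes, 1 was expressed, 15 had no read and the list median was 0 FPKM. ALB, the serum albumin gene (ENSG00000163631, chromosome 4, 73397114 to 73421412, GRCh38), had 0 counts in every library. APOA1, APOC3 and APOH, which encode apolipoproteins, TTR, the transthyretin gene, and TF, the transferrin gene, also had none. AFP, which encodes the fetal counterpart of albumin, had 1 count in each library. The cells are therefore referred to by their label only, and no other cell type name is given to them.

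CPS1 was the exception among the hepatocyte genes. It encodes the mitochondrial enzyme that starts the urea cycle, lies on chromosome 2 from 210477682 to 210679107, and measured 276, 272 and 266 FPKM in replicates 1, 2 and 3. It ranked 18 among all genes by CPM (2869 ± 68; SD, n = 3). OTC, the next enzyme of the cycle, had no read. Against a floor of 3 counts per library, CPS1 was at least 4391-fold higher than OTC in FPKM in each library. The other members of the urea cycle and nitrogen list were mixed, with ASS1, the argininosuccinate synthase gene, at 42.8 ± 1.7 FPKM and 8 of 12 genes expressed.

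Mitochondrially encoded transcripts headed the order by length-scaled level. Of the 25 genes with the highest mean FPKM, 16 lay on the mitochondrial genome. MT-CO2, a subunit gene of cytochrome c oxidase, measured 7714, 6892 and 7954 FPKM, MT-CO3 measured 7589, 7411 and 7539 FPKM, and MT-CO1 measured 7407, 6978 and 7783 FPKM. These 3 neighbours in the order overlapped between libraries. Of the top 25 genes 17, with MT-CO2 and MT-CO3 among them, overlapped the gene that came next in the order. The mitochondrial genome took 5.93% ± 0.23 of the counts (SD, n = 3) but 21.9% ± 0.62 of the summed FPKM. MT-TN and MT-TC, which are short transfer RNA genes, entered the same top 25 at 1859.7 ± 43 and 1541 ± 42 FPKM. With lengths of 73 and 66 bases, they ranked only 1589 and 2259 among all genes by CPM. MT-TC also overlaps MT-TY on its own strand, and the use of strand in counting is not given, so these levels are uncertain.

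**Figure D1:**
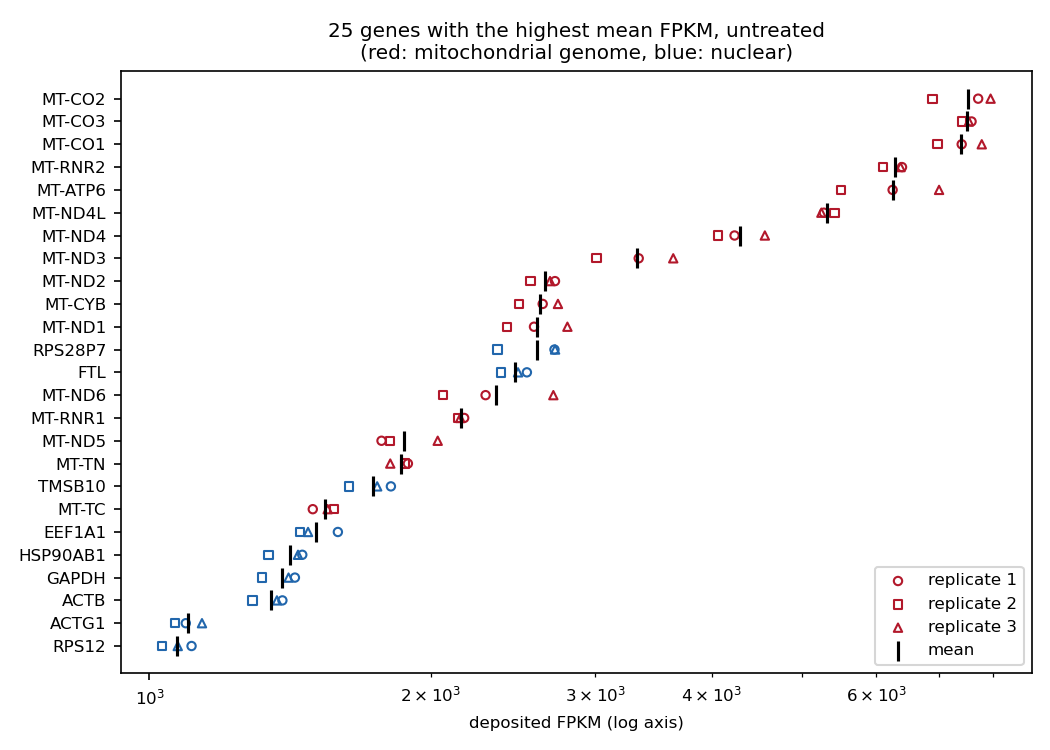
Deposited FPKM (log axis) of the 25 genes with the highest mean in the 3 untreated libraries, with each replicate as its own symbol and the mean as a vertical bar. Red marks the 16 genes of the mitochondrial genome, and RPS12 at the bottom stands at a mean of 1071 FPKM.

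Among nuclear protein-coding genes, those for iron storage, cytoskeleton, protein folding, glycolysis and ribosomes were highest. FTL, the ferritin light chain gene, measured 2536, 2378 and 2481 FPKM. By these deposited values all 3 libraries lay above every other nuclear protein-coding gene. TMSB10, which encodes an actin-sequestering thymosin, followed at 1734 ± 90 FPKM, and EEF1A1, the elongation factor that carries aminoacyl-tRNA to the ribosome, at 1506 ± 75 FPKM. HSP90AB1, a chaperone gene, stood at 1414 ± 63 FPKM. Its range over the 3 libraries overlapped those of GAPDH, a glycolytic enzyme gene (1387 ± 59), and ACTB, a cytoplasmic actin gene (1349 ± 52). Within each library HSP90AB1 lay above GAPDH and GAPDH above ACTB by deposited FPKM. FTH1, the ferritin heavy chain gene, measured 854 ± 37 FPKM and S100A4, a calcium-binding protein gene used as a mesenchymal marker, 829 ± 32 FPKM. The order of these genes depends on the deposited gene lengths. With the longest transcript as length, ACTB stood at 2471 FPKM, FTL at 2465, GAPDH at 2204, EEF1A1 at 2017 and TMSB10 at 1734.

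Ribosomal protein genes made up 39 of the 100 highest nuclear protein-coding genes. The 84 cytosolic ribosomal protein genes took 6.499% ± 0.22 of the counts and 82 of them were expressed. The 10 genes with the most counts took 6.32% ± 0.19 of each library and the 100 genes with the most counts 21.1% ± 0.41. Ordered by CPM, which favours long genes, the top 25 shared 15 genes with the order by FPKM and added others such as CPS1, FLNA, an actin-crosslinking filamin gene, and KRT8, a keratin gene.

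A pair of processed pseudogenes also stood at the top, and their levels are uncertain because each copies an expressed gene. RPS28P7 measured 2714, 2358 and 2718 FPKM, above RPS28, the ribosomal protein gene it copies, at 54.62, 53.02 and 56.78 FPKM. RPL39P3 measured 1054 ± 99 FPKM against 230 ± 19 FPKM for RPL39. How reads that match both copies were shared out is not given in the sources used here. Processed pseudogenes as a class took 0.547% ± 0.013 of the counts and 3.64% ± 0.096 of the summed FPKM.

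The sequence around transcription starts is given here as a description, with no test, for abundant and silent genes. For 14896 protein-coding genes, RefSeq start windows of 250 bases before to 50 bases after the start (GRCh38.p14) were found by symbol, 21021 in all, since genes with several starts have several windows. The 6 windows shown are those of EEF1A1 and RPS12, which stand for the abundant translation genes, NQO1 and PRSS56, which were high without being housekeeping genes, and ALB and CYP2A6, which had no read. They run from 250 bases before the start to 20 after it, 5′ to 3′ on the gene's own strand. Capitals mark the motif TATANA found 45 to 15 bases before the start, where a TATA box lies, and a run of at least 5 pyrimidines that opens with C at the start itself. A run of that kind is known from genes whose translation follows growth signals. The windows lie at chr6:73521013-73521282 (minus strand), chr6:132814319-132814588 (plus), chr16:69726541-69726810 (minus), chr2:232520138-232520407 (plus), chr4:73404037-73404306 (plus) and chr19:40850428-40850697 (minus).
EEF1A1: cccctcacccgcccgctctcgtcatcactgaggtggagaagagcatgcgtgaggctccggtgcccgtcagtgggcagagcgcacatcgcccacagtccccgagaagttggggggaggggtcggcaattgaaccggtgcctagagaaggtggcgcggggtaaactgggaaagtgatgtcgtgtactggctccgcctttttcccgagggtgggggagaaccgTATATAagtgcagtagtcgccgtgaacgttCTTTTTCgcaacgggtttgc
RPS12: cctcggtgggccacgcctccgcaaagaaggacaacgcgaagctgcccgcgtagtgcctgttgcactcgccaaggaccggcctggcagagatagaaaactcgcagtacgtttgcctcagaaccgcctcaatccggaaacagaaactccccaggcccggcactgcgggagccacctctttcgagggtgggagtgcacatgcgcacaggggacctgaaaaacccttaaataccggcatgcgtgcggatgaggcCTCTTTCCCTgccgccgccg
NQO1: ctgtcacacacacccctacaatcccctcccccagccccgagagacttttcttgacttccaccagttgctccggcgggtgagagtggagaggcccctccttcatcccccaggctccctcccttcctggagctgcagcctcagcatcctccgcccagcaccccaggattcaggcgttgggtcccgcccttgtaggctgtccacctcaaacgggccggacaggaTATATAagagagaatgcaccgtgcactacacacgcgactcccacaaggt
PRSS56: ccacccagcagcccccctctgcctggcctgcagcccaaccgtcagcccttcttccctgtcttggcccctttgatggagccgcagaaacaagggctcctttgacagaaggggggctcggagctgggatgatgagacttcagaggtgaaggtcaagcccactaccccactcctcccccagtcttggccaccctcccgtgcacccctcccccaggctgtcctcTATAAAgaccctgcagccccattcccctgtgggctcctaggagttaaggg
ALB: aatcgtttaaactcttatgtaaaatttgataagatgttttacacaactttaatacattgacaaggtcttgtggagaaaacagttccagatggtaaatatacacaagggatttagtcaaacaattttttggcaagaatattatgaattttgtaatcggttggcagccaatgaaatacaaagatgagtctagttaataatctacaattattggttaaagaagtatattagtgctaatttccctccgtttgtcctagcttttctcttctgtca
CYP2A6: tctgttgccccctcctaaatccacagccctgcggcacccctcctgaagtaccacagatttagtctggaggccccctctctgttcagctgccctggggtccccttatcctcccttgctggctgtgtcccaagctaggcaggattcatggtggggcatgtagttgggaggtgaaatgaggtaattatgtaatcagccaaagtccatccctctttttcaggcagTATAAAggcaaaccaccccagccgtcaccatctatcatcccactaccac

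EEF1A1 held both features, with TATANA beginning 30 bases before the start and a run of 7 pyrimidines, and RPS12 held the run alone, with 10. NQO1 and CYP2A6 held TATANA 29 bases before the start and PRSS56 held it 30 bases before, so a match was present both in genes at 220 ± 11 and 945 ± 51 FPKM and in a gene with no read. The ALB window held neither. These matches are descriptions of letters, not of bound factors.

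Over all 35116 windows of the table, 3.77% held TATANA in that position on the gene's strand, and 4.07% opened with the pyrimidine run. Over the 21021 windows of the matched coding genes these shares were 4.32% and 4.595%. Of the 100 highest nuclear coding genes 81 had a window, and among their 114 windows the shares were 17.5% and 30.7%. Of the 84 ribosomal protein genes 67 had a window, and the run was present in 55.4% of their 83 windows. The 11444 windows of 7841 expressed coding genes held TATANA in 1.98%, and the 4080 windows of 3243 coding genes with no read in 10.0%. The median ratio of observed to expected CpG was 0.835 for expressed genes, 0.327 for genes with no read, 0.742 for coding windows and 0.579 for all windows. GGGCGG, searched on both strands, lay in 68.4% of windows of expressed genes and 33.6% of windows of genes with no read, with 56.97% of coding windows and 44.95% of all. CCAAT, on both strands, lay in 34.98% and 35.88%, with 34.66% of coding windows and 34.6% of all. CCGGAAG, the core of an ETS site, was found on either strand in 18.7% and 4.31%, with 12.9% of coding windows and 10.3% of all.

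Keratins of simple epithelia were among the most abundant lineage genes. KRT8 measured 354, 325 and 355 FPKM, KRT7 303, 277 and 313 FPKM, and KRT18, the partner of KRT8 in filaments, 298, 283 and 296 FPKM. The libraries overlapped between KRT7 and KRT18, and KRT8 lay above both in every library. KRT7 (ENSG00000135480, chromosome 12, 52232520 to 52252186) has a deposited length of 4093 bases, and with its longest transcript of 1754 bases the level would be 695 FPKM. With their own longest transcripts KRT8 would be at 974 FPKM and KRT18 at 555 FPKM, so KRT8 would stay above KRT7. KRT8 and KRT18 overlap each other on opposite strands, and since the use of strand is not given in the sources used here, reads of overlapping or antisense genes cannot be told apart.

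Some other simple-epithelial genes had no read. KRT19, another type I keratin that often accompanies KRT7 in bile ducts, had none, so KRT18 was at least 6190-fold higher than KRT19. EPCAM, an epithelial adhesion gene, had none either. In the bile duct list 5 of 15 genes were expressed, led by KRT7 and by SLC4A2, an anion exchanger gene, at 41.1 ± 2.3 FPKM. KRT17, a keratin of basal and stressed epithelia, stood at 97.9 ± 3.9 FPKM and KRT80 at 75.3 ± 1.6 FPKM.

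Single genes of both epithelial junctions and mesenchymal cells were expressed at high levels, while the shares of the 2 lists that were expressed, given below, lay near the 48.7% of all protein-coding genes. JUP, the plakoglobin gene of desmosomes and adherens junctions, measured 86.2, 81.6 and 90.4 FPKM, and DSG2, a desmosomal cadherin gene, 38.8 ± 1.3 FPKM. CDH1, the E-cadherin gene, stood at only 0.110 ± 0.024 FPKM, whereas CDH2, the N-cadherin gene, stood at 17.5 ± 0.15 FPKM. The epithelial regulators ESRP1, GRHL2, OVOL1 and OVOL2 had no read, while ESRP2, the paralogous splicing factor gene, was at 22.9 ± 0.64 FPKM. In all, 10 of 20 epithelial and junction genes were expressed.

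COL3A1, the fibrillar collagen type III gene (ENSG00000168542, chromosome 2, 188974320 to 189012746), measured 143, 143 and 143 FPKM. COL1A2, which encodes a chain of type I collagen, had no read, so COL3A1 was at least 14940-fold higher. VIM, the vimentin gene, stood at 55.2 ± 0.93 FPKM, COL5A1 at 31.6 ± 1.7 FPKM and TAGLN, an actin-binding smooth muscle gene, at 20.2 ± 0.71 FPKM. Of 20 fibroblast and mesenchymal genes 9 were expressed, and PDGFRA, a growth factor receptor gene of fibroblasts, had no read. Among regulators of the epithelial to mesenchymal transition 6 of 9 were expressed, with TWIST2 at 12.9 ± 0.52 FPKM, TWIST1 at 4.64 ± 0.50 FPKM, SNAI2 at 3.10 ± 0.17 FPKM and ZEB1 at 2.78 ± 0.11 FPKM.

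Liver-enriched transcription factors were largely missing. HNF4A and FOXA2, which sit at the head of the hepatocyte network, had no read, nor did PROX1, GATA4 and the bile acid and xenobiotic receptor genes NR1H4 and NR1I2. FOXA1, a pioneer factor of liver and other epithelia (ENSG00000129514, chromosome 14, 37589984 to 37596059), measured 2.95, 2.96 and 2.88 FPKM. The other 4 expressed members of the 20 were CEBPB (20.4 ± 1.5 FPKM), HHEX (7.38 ± 0.57), TBX3 and GATA6.

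Several lists of other tissues had no expressed member. No member was expressed in 7 of the 66 lists, those of urothelium, intestine, pancreas, kidney tubule, endothelium, blood and nervous tissue, although the urothelial list had 1 expressed member, PPARG, without replicate 3. The lung list had 4 expressed members, which were ABCA3, NKX2-1, SCGB3A2 and AGER in order of level. The mesothelial list had 2, and the squamous, breast, melanocyte, skeletal muscle and pluripotency lists 1 each. All 10 pancreatic genes had no read. Over the 23 lineage lists 63 of 271 genes were expressed, with a median of 0.00973 FPKM, against 0.895 FPKM for all protein-coding genes. Single genes stood out in lists that were mostly silent: SFN, an epithelial 14-3-3 protein gene, at 121 ± 12 FPKM, MSLN, the mesothelin gene, at 33.8 ± 1.7 FPKM, ABCA3, a lipid transporter of lung surfactant, at 25.1 ± 1.0 FPKM, and ACTC1, a cardiac actin gene, at 20.5 ± 1.1 FPKM. Blood genes such as CD3E, LYZ and HBB had no read.

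**Figure D2:**
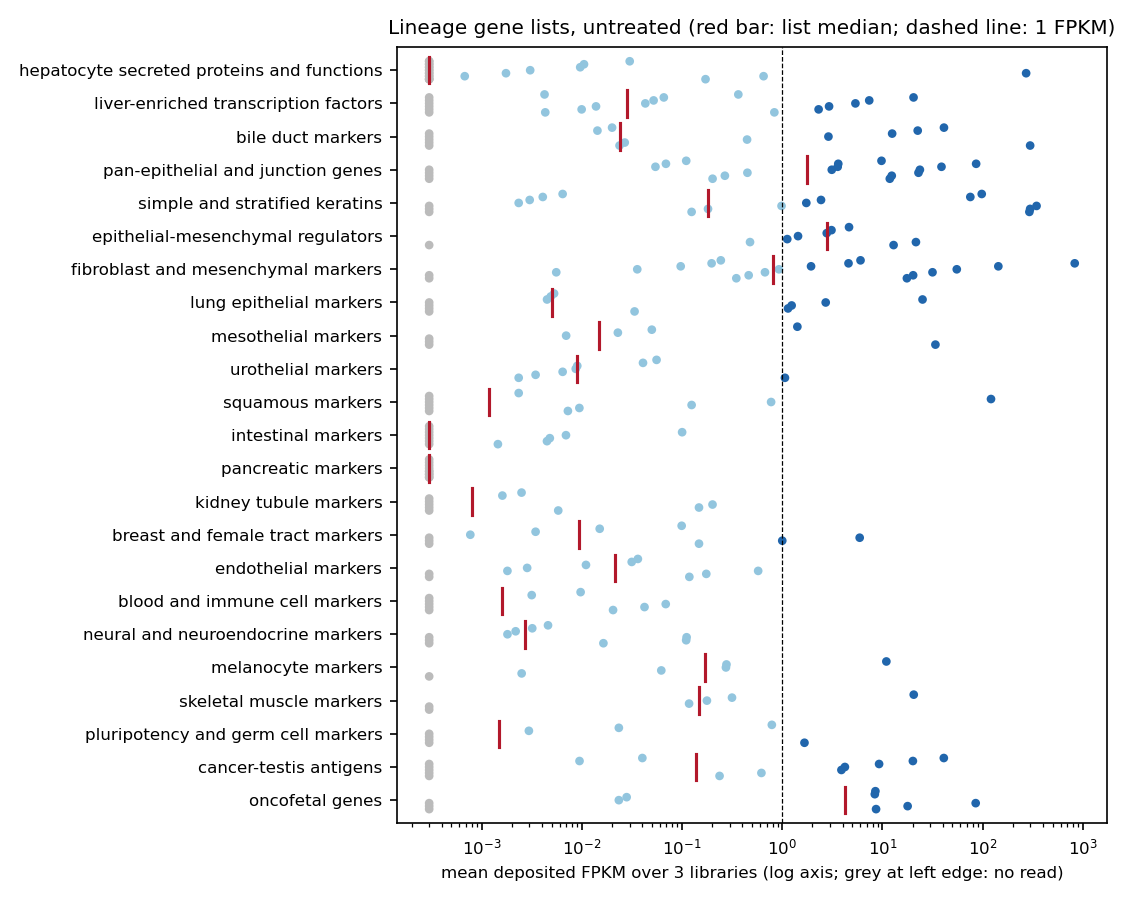
Mean deposited FPKM over the 3 untreated libraries (log axis) of every gene in the 23 lineage lists, with dark points at a mean of at least 1 FPKM, light points below it, grey points at the left edge for no read and a red bar for the list median. In the hepatocyte list CPS1 is the lone point above the dashed line at 1 FPKM, while keratin and mesenchymal lists reach beyond 100 FPKM.

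Some genes normally restricted to testis or fetal tissue were on. Of 14 cancer-testis genes 5 were expressed, led by MAGEA6 (42.8, 39.3 and 40.8 FPKM) and MAGEA3 (20.1 ± 1.6), which are near-identical copies so that their split is uncertain. PEG10, an imprinted retrotransposon-derived gene, measured 86.0, 85.3 and 84.3 FPKM. H19, the imprinted noncoding RNA gene, stood at 17.8 ± 2.5 FPKM, while its neighbour IGF2, the fetal growth factor gene, had no read. GPC3 and DLK1, further fetal liver genes, had no read either. In the oncofetal list 5 of 10 genes were expressed, a share near the 48.7% of all protein-coding genes. After PEG10 and H19 these were IGF2BP1, IGF2BP3 and IGF2BP2.

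HOX genes, which mark position along the body axis, were on in patterns that differed between the clusters. Of 39 HOX genes 18 were expressed, a share near the 48.7% of all protein-coding genes. In paralog groups 9 to 13 this was 10 of 16, in groups 5 to 8 it was 5 of 11 and in groups 1 to 4 it was 3 of 12. The clusters did not all follow these pooled counts. In the B cluster HOXB2 (7.25 ± 0.70 FPKM), HOXB3 and HOXB4 were expressed and HOXB13 (0.539 ± 0.080 FPKM) was not. In the D cluster only HOXD8 and HOXD9 were expressed. Several HOX genes overlap another gene on their own strand, such as HOXD10 with HOXD11, HOXB3 with HOXB4 and HOXC10 with AC012531.2. The levels of such genes, and whether they count as expressed, are therefore uncertain. HOXC10 measured 28.7, 26.7 and 27.3 FPKM and stood above every other HOX gene in all 3 libraries. HOXB7 (14.6 ± 0.70), HOXA11 (12.5 ± 0.50) and HOXC13 (11.3 ± 0.85 FPKM) followed, and HOXD genes reached no more than 4.50 ± 0.59 FPKM, at HOXD9.

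**Figure D3:**
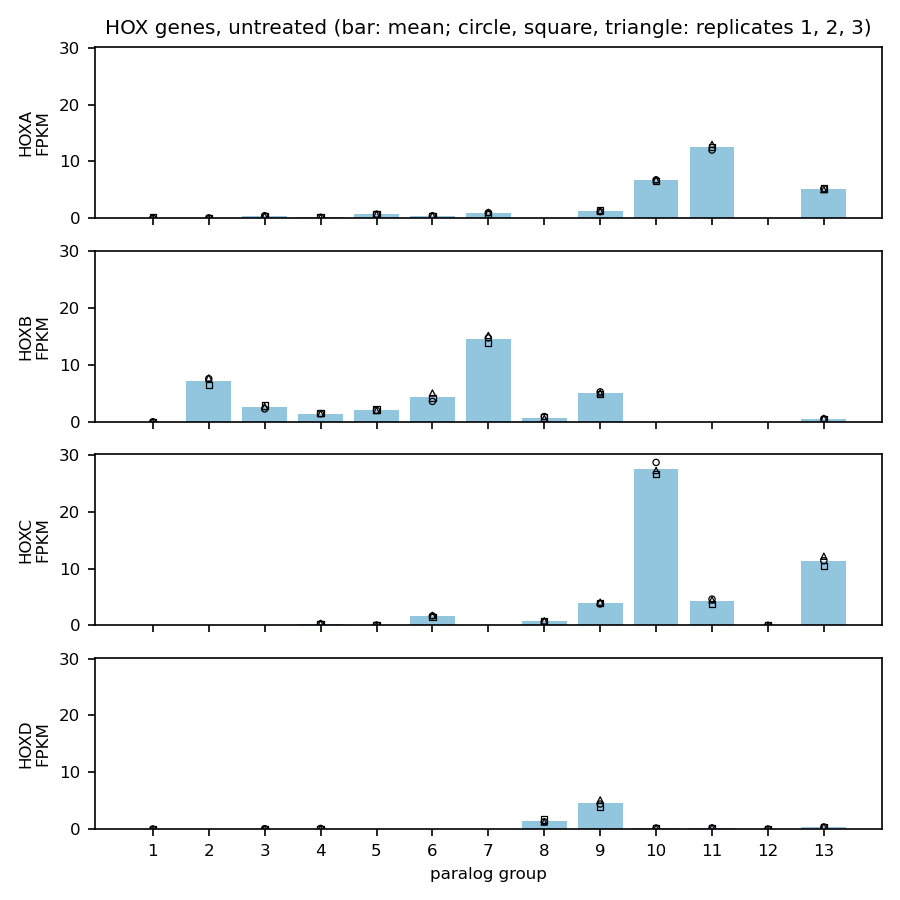
Deposited FPKM of the HOX genes by cluster (panels) and paralog group (horizontal axis) in the untreated libraries, with bars for the mean and symbols for the 3 replicates. HOXC10 is highest at a mean of 27.5 FPKM, and the D cluster reaches 5.14 FPKM, in replicate 3 of HOXD9.

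Of 1547 genes that the deposited annotation assigns to a transcription factor family, 709 were expressed (45.8%), near the 48.7% of all protein-coding genes. The highest were YBX1, a cold-shock domain protein of RNA and DNA (823 ± 42 FPKM), HMGA1, a chromatin architecture protein (437 ± 19 FPKM), and CNBP, a nucleic acid-binding protein (305 ± 15 FPKM), followed by the differentiation inhibitors ID1 and ID3. In the homeobox family 56 of 192 genes were expressed (29.2%), whereas in the MYB family 21 of 22 were. MYC, which drives growth and ribosome production, measured 144, 140 and 142 FPKM, and MYCN, its neural paralog, had no read.

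Receptors for growth factors were led by EGFR, the epidermal growth factor receptor gene, at 132, 139 and 137 FPKM. ERBB2 stood at 5.93 ± 0.17 FPKM, and 5 of the 12 genes of the family and its ligands were expressed. MET, the hepatocyte growth factor receptor gene, measured 60.3, 63.2 and 59.3 FPKM. EPHA2, an ephrin receptor gene, stood at 39.2 ± 2.9 FPKM and AXL at 27.3 ± 0.85 FPKM, whereas KIT had no read. In the list of MET, FGF and other receptor kinases 11 of 20 genes were expressed. That share and the share of the EGF receptor list lay near the 48.7% of all protein-coding genes. Output genes of the RAS to ERK cascade were expressed in 11 of 15 cases, with CCND1, the cyclin D1 gene, at 49.4 ± 1.3 FPKM and FOSL1 at 10.4 ± 1.3 FPKM.

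Every one of the 13 genes of the YAP and TEAD list, which holds both targets and components of that pathway, was expressed. CCN1, a matricellular target gene, measured 225, 237 and 236 FPKM, YAP1, the coactivator gene, 156, 156 and 149 FPKM, and CCN2, another matricellular target, 97.1, 105 and 102 FPKM. The list median was 23.8 FPKM.

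In the TGF-beta and BMP list 18 of 23 genes were expressed. ID1, a target of BMP signalling, measured 193, 189 and 192 FPKM and ID3 184, 178 and 183 FPKM. BMP2 stood at 15.8 ± 0.53 FPKM and TGFB1 at 27.4 ± 2.5 FPKM, while BMP7 had no read. Of the WNT ligand and receptor genes 12 of 17 were expressed, among them the ligands WNT5A (20.4 ± 0.21 FPKM) and WNT7B (19.2 ± 0.24 FPKM). Of 11 genes known as beta-catenin targets 4 were expressed, which were GLUL, TBX3, NOTUM and ZNRF3 in order of level. AXIN2, a feedback gene of that pathway, was not, at 0.0559 ± 0.024 FPKM.

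Cytokine genes were mostly off, whereas immune genes of other kinds were mixed. Of 22 cytokine and chemokine genes 5 were expressed, led by IL18 at 23.2, 22.3 and 21.3 FPKM, and CXCL1, CXCL5, CCL20, IL33 and CSF2 had no read. IFNB1 and IFNL1, the interferon genes, had no read, and 7 of 18 genes of interferon response and innate sensing were expressed, or 12 of 18 at a threshold of 1 CPM. BST2, an interferon-inducible membrane protein gene outside that list, measured 266, 242 and 268 FPKM. B2M, the light chain of class I molecules, measured 57.2, 48.7 and 51.6 FPKM, while the class II genes HLA-DRA and HLA-DRB1 had no read.

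Few cytochrome P450 genes of drug metabolism were expressed. Of 30 cytochrome P450 genes 6 were expressed and 14 had no read, with a median of 0.00557 FPKM. CYP2A6, the coumarin hydroxylase gene, and CYP1A2, CYP2B6, CYP2C8, CYP2E1 and CYP3A4 had 0 counts in all 3 libraries. Most of those that were expressed are known for sterol, retinoid or vitamin D handling. They included CYP51A1, a cholesterol synthesis enzyme, at 4.995, 4.139 and 5.133 FPKM, CYP2S1 at 3.20 ± 0.12 FPKM, CYP24A1 at 2.04 ± 0.24 FPKM and CYP27B1 at 1.34 ± 0.064 FPKM. The redox partners of P450 enzymes were present: POR, the P450 reductase gene, measured 9.98, 10.2 and 11.5 FPKM. CYB5B, an outer mitochondrial cytochrome b5 gene, was at 25.9 ± 1.2 FPKM, but CYB5A, the microsomal form, had no read.

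NQO1, the quinone reductase gene (ENSG00000181019, chromosome 16, 69706996 to 69726951), measured 231, 211 and 217 FPKM. It led the 8 genes of the aryl hydrocarbon receptor list, 6 of which were expressed. AHRR, the receptor's repressor gene, stood at 23.5 ± 1.8 FPKM and TIPARP, a target gene, at 13.6 ± 0.72 FPKM, above AHR, the receptor gene, at 1.71 ± 0.049 FPKM. CYP1A1, another target, was not expressed by the rule, at 0.149, 0.301 and 0.237 FPKM. AHRR overlaps PDCD6 on its own strand, so its level is uncertain.

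The list of NRF2 pathway genes and antioxidant targets was the opposite of the P450 group, with 24 of 25 expressed and a median of 34.0 FPKM. Apart from the ferritins, the highest were PRDX1, a peroxiredoxin gene (661 ± 33 FPKM), TXN, the thioredoxin gene (348 ± 15 FPKM), and TXNRD1, its reductase (310 ± 14 FPKM). GSTP1, the pi-class glutathione transferase gene, measured 241.4, 225.1 and 238.7 FPKM, whereas GSTA1 and GSTA2, the alpha-class genes typical of hepatocytes, had no read. GSTP1 was thereby at least 2144-fold higher than GSTA1. Among carbonyl reducing enzymes 11 of 16 were expressed, led by AKR1B1 (66.0 ± 5.3 FPKM) and AKR1C3 (50.7 ± 3.4 FPKM), the latter of a family of close copies.

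Transferases for glucuronic acid had almost no reads. UGDH, which makes the sugar donor, measured 28.04, 26.95 and 26.93 FPKM, but UGT8, a glycolipid enzyme, was the only other of 17 genes in that list to be expressed, and UGT1A3, UGT1A4, UGT1A6, UGT1A9, UGT2B4 and UGT2B7 had no read. The UGT1A genes share exons, so reads there cannot be assigned to a single one. Sulfation kept its donor enzymes, with PAPSS2 at 40.6 ± 0.35 FPKM, and SULT2A1 had no read. Methylation was represented by NNMT, a nicotinamide methyltransferase gene, at 36.7 ± 1.8 FPKM. Export pumps were on in 8 of 15 cases, with ABCC2, a canalicular conjugate pump, at 22.5, 24.9 and 23.7 FPKM and ABCC1 at 17.3 ± 0.85 FPKM. Of 17 drug uptake transporters 8 were expressed, led by SLC16A1, a monocarboxylate carrier, and SLC29A1, a nucleoside carrier. The shares expressed among export pumps and uptake transporters lay near the 48.7% of all protein-coding genes.

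**Figure D4:**
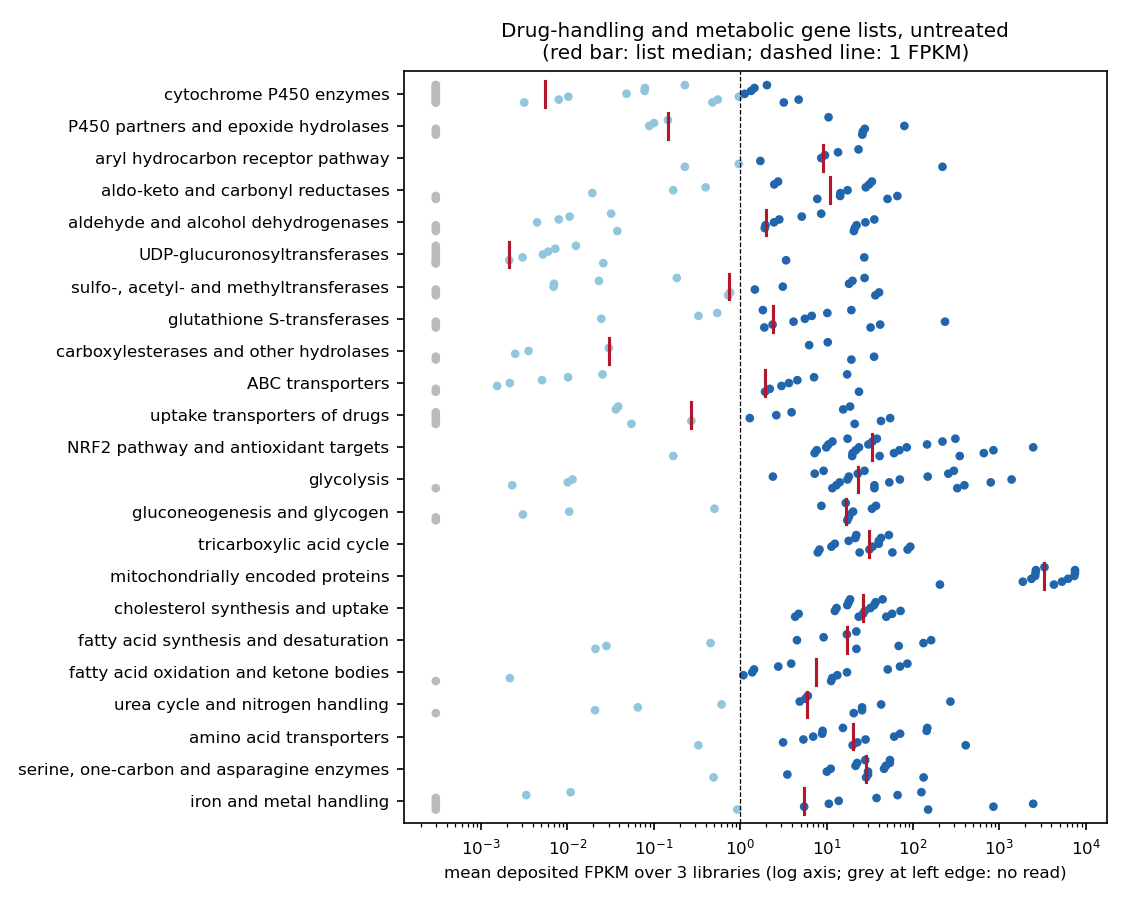
Mean deposited FPKM over the 3 untreated libraries (log axis) of the genes in the drug-handling and metabolic lists, with grey points for no read, a dashed line at 1 FPKM and a red bar for each list median. The P450 and glucuronosyltransferase medians lie below 0.01 FPKM, and the NRF2 list median lies at 34.0 FPKM.

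Most genes of central carbon metabolism were expressed. Of 25 glycolysis genes 21 were expressed, with GAPDH, ENO1 (796 ± 56 FPKM) and TPI1 (394 ± 16 FPKM) highest. LDHA, the lactate dehydrogenase A gene, was 9.11 ± 0.30 times as high as LDHB in FPKM. Genes for some liver forms had few or no reads, but PYGL, the liver form of glycogen phosphorylase, stood at 33.6 ± 0.92 FPKM, above the brain form PYGB (18.6 ± 0.96 FPKM) in every library. PKM, the pyruvate kinase of most tissues, stood at 257 ± 14 FPKM and PKLR, the liver form, at 0.0101 FPKM from 3 counts in all. SLC2A1, a widespread glucose transporter gene, was at least 698-fold higher than SLC2A2, the hepatocyte form, which had no read. ALDOA stood at 2.39 ± 0.34 FPKM, but it overlaps AC093512.2 on its own strand, and what that overlap does to its count was not tested. All 17 tricarboxylic acid cycle genes were expressed, with a median of 31.4 FPKM.

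Genes of lipid synthesis were expressed as well. All 17 genes of cholesterol synthesis and uptake were expressed (median 26.4 FPKM). SCD, the stearoyl-CoA desaturase gene, measured 163, 160 and 164 FPKM and ACLY, which makes cytosolic acetyl-CoA, 132 ± 3.6 FPKM. ACACA, the lipogenic acetyl-CoA carboxylase gene, was 37.8 ± 1.4 times as high as ACACB. OXCT1, the enzyme that uses ketone bodies, stood at 70.9 ± 2.6 FPKM. Of the gluconeogenic genes of liver, PCK1 stood at 0.0105 FPKM, G6PC at 0.00306 FPKM, and FBP1 had no read.

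SLC7A5, the large neutral amino acid transporter gene (ENSG00000103257, chromosome 16, 87830023 to 87869488), measured 408, 396 and 421 FPKM and ranked 36 among all genes by CPM. Its heavy chain partner SLC3A2 stood at 147 ± 5.0 FPKM, and 14 of 15 amino acid transporter genes were expressed. PSAT1, a serine synthesis enzyme, measured 138, 129 and 131 FPKM, while ASNS, the asparagine synthetase gene, was at 0.421, 0.648 and 0.407 FPKM. The ASNS gene shares sequence on the same strand with AC079781.5. ATF4, the transcription factor of the amino acid response, stood at 154 ± 8.3 FPKM, and 10 of the 13 genes of the integrated stress response list were expressed, with a median of 3.61 FPKM.

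Proliferation genes were expressed throughout. All 20 genes of DNA replication and mitosis were expressed, with a median of 48.1 FPKM, led by PCNA, the replication clamp gene, at 254, 239 and 237 FPKM. CDKN2A, the p16 and p14ARF inhibitor locus, measured 107.9, 93.05 and 112.2 FPKM, and CCND2 had no read. In the matrix and integrin list 20 of 30 genes were expressed, with ITGB1, the common beta-1 integrin chain, at 116 ± 4.9 FPKM and COL12A1 at 55.6 ± 1.5 FPKM.

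Long noncoding genes were mostly off, with 590 of 14933 expressed (3.95%). SNHG6 (166 ± 9.2 FPKM) and GAS5 (111 ± 1.3 FPKM), both hosts of small nucleolar RNAs, were among the highest. MALAT1, a nuclear RNA, measured 27.3, 33.8 and 28.1 FPKM and NEAT1, the scaffold of paraspeckles, 28.4, 34.0 and 30.6 FPKM. Both were highest in replicate 2.

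PRSS56, a trypsin-like serine protease gene, was the 12th highest nuclear protein-coding gene by deposited FPKM, at 947, 893 and 995. That rank depends on the deposited gene lengths. With the longest transcript as length PRSS56 stood at 1047 FPKM, below genes it otherwise exceeded, such as ENO1 (1790) and PPIA (1612). PRSS56 lies on chromosome 2 from 232520463 to 232525716. ALPP, the placental alkaline phosphatase gene 142 kb before it, measured 425, 436 and 466 FPKM, and ALPI, the intestinal form, 74.1, 69.9 and 78.7 FPKM, whereas ALPG between them stood at 6.19 ± 0.22 FPKM. The alkaline phosphatase genes are close copies, so the split between them is uncertain. CHRND, the next coding gene after PRSS56, stood at 8.45 ± 0.55 FPKM. ECEL1, which lies between ALPI and PRSS56, stood at 0.109 ± 0.041 FPKM, and CHRNG, a muscle acetylcholine receptor gene further along on the other side, at 0.122 ± 0.050 FPKM.

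**Figure D5:**
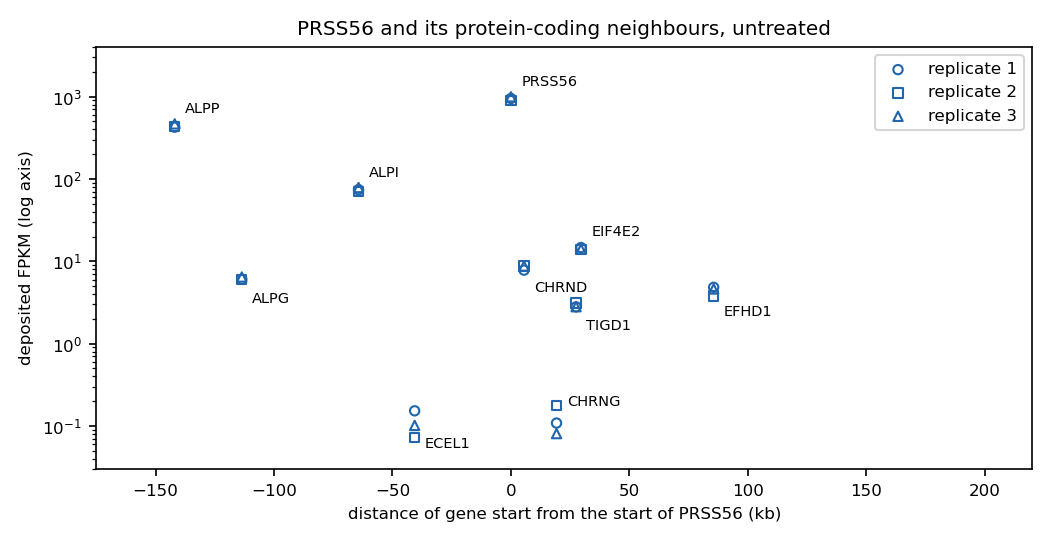
Deposited FPKM (log axis) of PRSS56 and the protein-coding genes around it in the 3 untreated libraries, placed by the distance of each gene's start from that of PRSS56 in kb. PRSS56 and ALPP lie above 400 FPKM in every library, with ECEL1 below 0.2 FPKM between them.

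Along the autosomes the share of coding genes that was expressed ran from 40.3% on chromosome 19 to 54.5% on chromosome 16. At a threshold of 1 CPM chromosome 16 was again highest (61.4%) but chromosome 21 was lowest (45.5%), with chromosome 19 at 48.6%, so the low end of this order depends on the threshold. The longest run of neighbouring coding genes with no read, 55 genes from OR4C13 to APLNR on chromosome 11, held mostly olfactory receptor genes, and the next, 53 genes on chromosome 1, began at TCHHL1 and ended at S100A7 and held genes of the cornified skin layer. The longest run of expressed genes was 20, from GOLGA2 to LRRC8A on chromosome 9. No olfactory receptor gene of 386 and no keratin-associated protein gene of 94 was expressed, while 77 of 78 mitochondrial ribosomal protein genes and all 34 aminoacyl-tRNA synthetase genes were.

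The 3 libraries were close to each other. Of 9072 genes with a mean of at least 10 CPM, 94.7% had a coefficient of variation (SD over mean) of CPM under 10%, and the median was 4.31%. The biological coefficient of variation common to 14408 genes, estimated by edgeR, was 0.0484. Each pair of libraries nevertheless differed by more than sampling noise, with a chi-square per degree of freedom of 4.80, 4.75 and 6.28, so no pair was treated as a single library deposited more than once. That comparison does not show that the cultures were separate, and the count of 3 samples rests on the labels.

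The 8 most variable of these genes included U2AF1, SMN1, COMMD6, EIF3C, GPR89B, CBS and LSM12P1, which apart from COMMD6 have a near-identical copy elsewhere. U2AF1, a splicing factor gene, measured 22.0, 7.18 and 6.69 CPM while its copy U2AF1L5 measured 4.80, 9.26 and 10.8 CPM. The coefficient of variation was 35.98% for LSM12P1 but 4.86% for its sum with LSM12, and 39.4% for GPR89B but 9.31% for its sum with GPR89A. For SMN1 with SMN2 the sum still varied by 30.7%, for EIF3C with EIF3CL by 36.9%, for CBS with CBSL by 37.1% and for U2AF1 with U2AF1L5 by 28.04%.

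Genes next to the threshold show how sharp it is. CPT2, a fatty acid import enzyme gene, passed at 1.07, 1.03 and 1.16 FPKM, and AGER passed at 1.31, 1.08 and 1.03 FPKM. PPARG, the adipocyte nuclear receptor gene, missed it at 1.11, 1.09 and 0.999 FPKM, and HES1, a Notch target gene, missed it at 0.951, 1.19 and 1.77 FPKM.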

How the data were processed

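Poly(A)-enriched RNA of 21 cultures was sequenced, and the 3 libraries at 0 µM coumarin were used. The deposited gene counts are whole reads per gene with no normalization, and the deposited FPKM are the authors' values. Per the submitters' processing notes HISAT2, DESeq2 and GRCh38 were named without a role. The counting tool, and whether it used strand, is not given in the sources used here. Each deposited FPKM equals count over gene length times a library constant, which was 0.964, 1.00 and 0.975 times the total count. Gene lengths equal the merged exons of GENCODE 29 for all 58735 genes. Merged exons were a median 1.25 times the longest transcript of coding genes and at least 2 times for 2798 of them, so FPKM of such genes are low.

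CPM were computed from the counts and each library's total, and levels are means ± SD. The spread was estimated with edgeR 4.0.16 in R 4.3.3 after TMM scaling, and was tested on simulated data first. Figures used matplotlib 3.10.9. Gene lists (66, with 984 entries) and the libraries were chosen with earlier results of these data known. The genes named are the 25 highest by FPKM and by CPM, up to 5 highest members and 6 members with no read per list, the 6 marker genes, the 8 most variable and those next to the threshold. Other genes named were chosen after their values were seen, and some genes that the rule names are not reported here. Alternatives were other thresholds, scalings, a length from the longest transcript, and each library left out.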

Additional observations from a re-analysis of the deposited data

How the results depend on the processing

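No paired analysis was possible because a single group was described and no test between groups was made. The count of expressed genes stayed within 1.5 times of 11001 under all 8 alternatives, and leaving out a library gave 11120 to 11158. Genes with no read numbered 33301 to 33449 without a library. As a share of summed FPKM, the 10 and 100 genes with the most counts took 14.2% and 33.3%, mitochondrial genes 21.9%, ribosomal protein genes 7.67% and coding genes 89.0%. Over a total without mitochondrial genes, the nuclear ones of the 10 and 100 took 2.30% and 16.2%, ribosomal protein genes 6.91% and coding genes 98.1%. Leaving out a library gave 6.24% to 6.42%, 21.0% to 21.4%, 5.80% to 6.02%, 6.40% to 6.62% and 96.9% to 97.0% of counts for the same 5 classes in that order. The biological coefficient of variation ran from 0.0425 to 0.0546 without a library.

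Members expressed at 1 CPM were 2 each for the hepatocyte, squamous, breast, skeletal muscle and pluripotency lists, 1 each for the urothelial and kidney lists, 7 for Notch and 12 for interferon genes. At 0.5 FPKM the hepatocyte, squamous, breast and pluripotency lists had 2 and the urothelial list 1. By the longest transcript, an alternative chosen after seeing the data, the breast list had 2 and the urothelial list 1. The urothelial list gave 0 to 1 without a library, the single gene being PPARG without replicate 3. The other counts of members kept within 1.5 times. TATANA anywhere in the window was present in 14.1% of all windows, 11.5% of coding, 6.88% of expressed and 22.6% of no-read windows, so the order of expressed and no-read genes held. Scaling by TMM moved mean CPM of genes at 1 CPM or more by at most 1.02%, and rescaling to TPM multiplied FPKM by 3.15 to 3.30. Depth limits genes near 3 counts, and an absent gene is one not detectable at this depth.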
